A study of Mus musculus with 6 samples.

Results

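Mitochondrial ribosomal proteins are the proteins of the ribosome that works inside mitochondria. Their genes carry the symbols Mrpl, for the large subunit, and Mrps, for the small one. They were taken by symbol alone, as Mrpl or Mrps followed by a number and at most 1 letter. The array summarises the probes of a transcribed region into a transcript cluster, and where several transcript clusters carried the same symbol, the one with the highest mean over the 6 arrays was used. This gave 75 genes out of the 21531 genes tested. Expression had been measured on Affymetrix mouse gene 1.0 ST arrays, 3 of fasted and 3 of refed liver. All mice were wild type and 12 to 14 weeks old. Each array held RNA pooled from 3 mice, so that 9 mice were used per condition and the spread among mice of a pool cannot be seen. The labels name no other treatment. How long the mice fasted or were refed, their sex and the hour of sampling are not given in the sources used here.

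A mitochondrial ribosome translates the few messenger RNAs that are transcribed from mitochondrial DNA, which encode core subunits of the respiratory chain and of ATP synthase. Its ribosomal RNAs are transcribed in the organelle, whereas all its proteins are encoded in the nucleus, made in the cytosol and imported, so that its assembly draws on both genomes. One part of these proteins has counterparts in the bacterial ribosome, and the other part exists only in mitochondria. Liver cells are rich in mitochondria, which oxidise fatty acids and make ketone bodies in fasting.

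Values below are log2 values made by RMA, a method that corrects background, normalises arrays and summarises probes. A change is fasted minus refed on this scale, means are given ± SD with n = 3 pools, and a gene was called at an adjusted p under 0.05 in limma. Brightness also depends on the probes, so that levels of different genes were not set against each other. In bulk liver, fewer cells of a type and less RNA per cell cannot be told apart.

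The mitochondrial ribosomal protein genes moved about as much between fasted and refed liver as genes overall. All 75 entered the test, as no filter on dim genes was set. By limma, 2 of the 75 genes (2.67%), Mrpl34 and Mrpl19, fell in fasted liver and 0 rose, against 3.02% of all genes called in either direction (1.62% of all genes lower and 1.4% higher). At an unadjusted p under 0.05 the members numbered 10 (13.3%), against 14.1% of all genes, and 9 were lower (12%, against 7.75%) and 1 higher (1.33%, against 6.38%). The share of called members is thus near that of all genes. The change was negative in 47 members (62.7%) and positive in 28, against 53% of all genes with a negative change. The sign of 31 members turned in at least 1 of the fits that left out 1 array. The median change was -0.057, against -0.0093 over all genes, and single changes lay between -0.59 and 0.30. In 67 members (89.3%) the change was within 0.25 of 0 on the log2 scale, as in 87.8% of all genes. The fasted pools had a median SD of 0.12 per gene and the refed pools of 0.090, and the median size of a change was 0.090 (0.086 over all genes), so that a typical change was within the spread between pools.

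**Figure D1:**
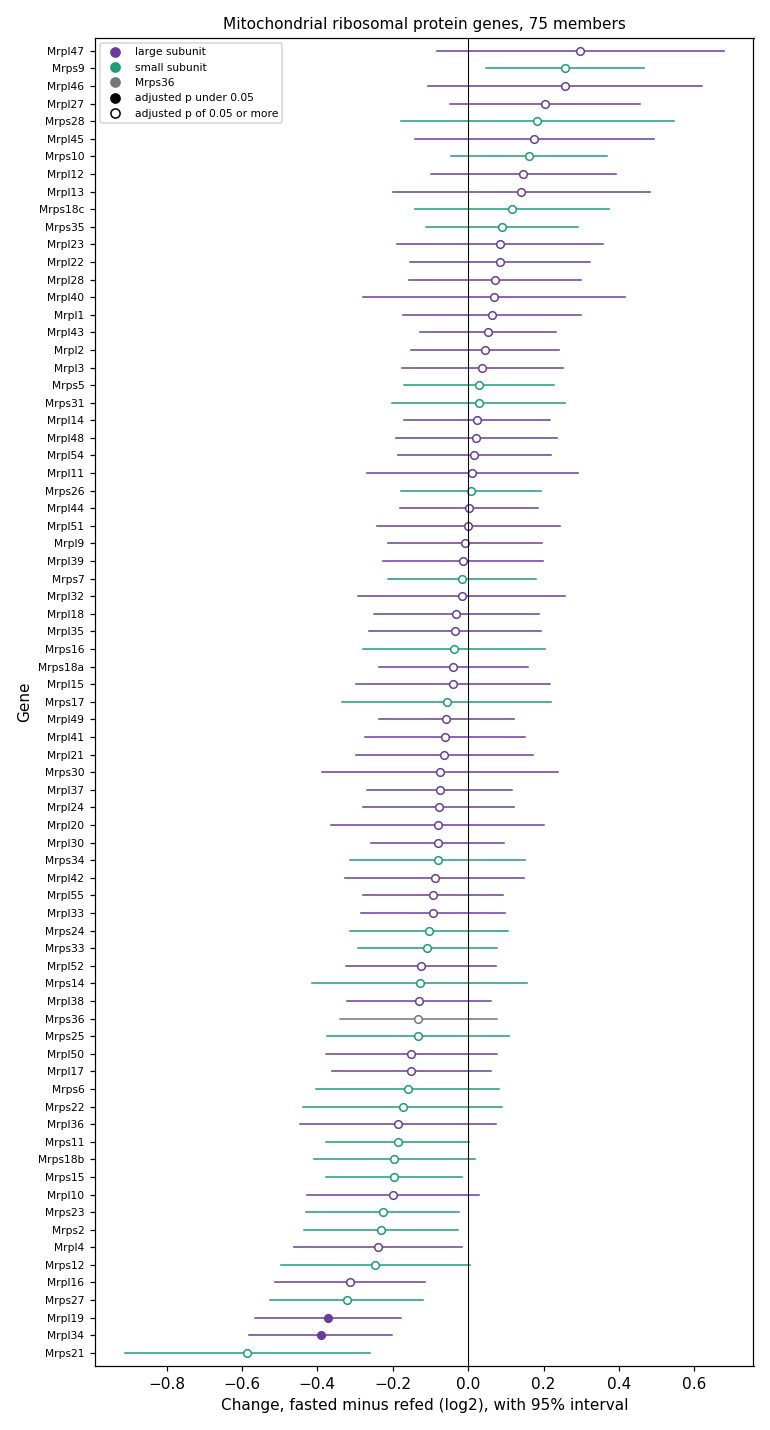
The change of each of the 75 members (horizontal axis, fasted minus refed, log2) with its 95% confidence interval from limma, with genes in order of their change. Most intervals span 0, and the 2 filled points, Mrpl34 and Mrpl19, are the called members.

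In 15 members (20%) all 3 fasted arrays were below all 3 refed arrays, and in 1 member (1.33%) all were above. Over all genes these shares were 10.7% and 8.16%, and 18.8% for either direction, against 21.3% (16 genes) of the members. Besides Mrpl34 and Mrpl19, the genes with fasted arrays below were Mrps21, Mrps27, Mrpl16, Mrpl4, Mrps2, Mrps23, Mrpl10, Mrps15, Mrps18b, Mrps11, Mrps33, Mrpl30 and Mrpl49. Mrps9 was the gene with fasted arrays above. In Mrpl30 and Mrpl49 the groups were apart by little, with changes of -0.081 and -0.059. Such a separation therefore includes differences far smaller than those called.

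Mrpl34 (chromosome 8, 73988825 to 73989652, NCBIM37) encodes a small protein of the large subunit with a counterpart in the bacterial ribosome. Its log2 values were 10.24, 10.08 and 10.16 in fasted arrays 1, 2 and 3, against 10.54, 10.60 and 10.51 in refed arrays 1, 2 and 3. The groups did not overlap, and the gap between them exceeded the range within either. It averaged 10.16 ± 0.079 in fasted and 10.55 ± 0.044 in refed liver, which differ by -0.39 (95% interval -0.58 to -0.20, 1.31-fold lower, limma adjusted p = 0.0344). Mrpl19 (chromosome 6, 81907820 to 81915943) encodes another large-subunit protein, whose bacterial counterpart lies at the interface of the subunits. Its values were 8.48, 8.47 and 8.38 in the fasted arrays, against 8.75, 8.78 and 8.92 in the refed arrays. Here too the groups were apart, with fasted 3 the lowest array and refed 3 the highest. The means were 8.44 ± 0.052 in fasted and 8.82 ± 0.090 in refed liver, which differ by -0.37 (-0.57 to -0.18, 1.29-fold lower, limma adjusted p = 0.0473). Both calls were lost whichever array was left out, with adjusted p of 0.0637 to 0.131 for Mrpl34 and of 0.0808 to 0.195 for Mrpl19.

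The change furthest from 0 was that of Mrps21 (chromosome 3, 95666575 to 95675422), which encodes a small-subunit protein with a bacterial counterpart and did not pass the threshold. It stood at 11.68, 11.08 and 11.68 in the fasted arrays, against 12.14, 12.05 and 12.01 in the refed arrays. All fasted arrays were below all refed arrays, and fasted 2 lay well below fasted 1 and fasted 3. The change was -0.59 (-0.91 to -0.26, limma adjusted p = 0.0621), and it was -0.39 without fasted 2. Mrps27 (chromosome 13, 100114741 to 100185516), a pentatricopeptide repeat protein found only in mitochondria, was at 7.84, 7.71 and 7.82 in the fasted arrays, against 8.13, 7.99 and 8.22 in the refed arrays. These groups were apart as well, and its change of -0.32 (-0.53 to -0.12) had an adjusted p of 0.103 in limma.

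**Figure D2:**
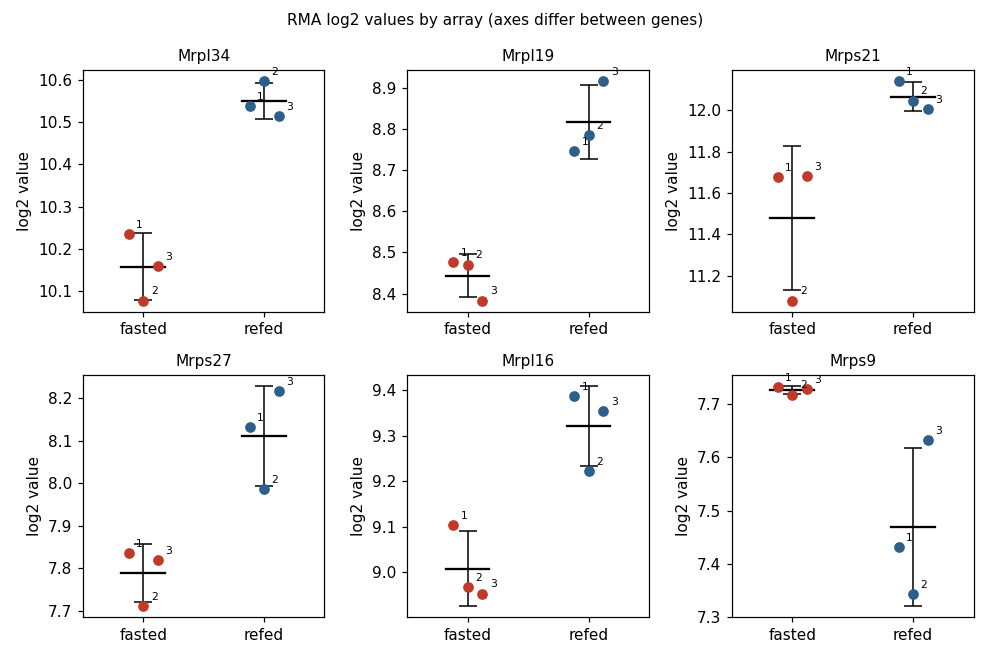
Log2 values of 6 members (vertical axes, which differ between genes) in the fasted and the refed arrays. Points are arrays with their number, the thick line is the mean and the bars are the SD of 3 pools. In 5 of the genes all fasted arrays lie below all refed arrays, and in Mrps9 they lie above.

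The sequences upstream of these genes are shown because the motifs of factors known to bind promoters of mitochondrial protein genes could be looked for in them. Windows of 300 bases, 250 before and 50 after the start site, were taken from RefSeq (GRCm38.p6), and 66 of the 75 members had one. Each motif was searched on both strands. The ETS motif CCGGAAG, which the factor GABP (also named NRF2) recognises, was found in 23 of the 66 members (34.8%), against 9.93% of all 27025 genes. The NRF1 motif GCGCANGCG was found in 15 (22.7%, against 7.03%) and the YY1 motif AAGATGGCG in 8 (12.1%, against 1.64%). At least 1 of these motifs was found in 39 members. The cyclic AMP response element TGACGTCA occurred in 2 (3.03%, against 2.03%) and the TATA box letters TATAAA in 5 (7.58%, against 15.7%). A gene with several windows counted if any of them held the motif. Below are the last 250 bases before and the first 30 after the start site, with matches to any of these motifs in capitals, for the 4 members with the largest negative changes among those with a window (Mrpl19 had none). Positions count from the start site, whose first base is 0.
Mrpl34, chr8:71464676-71464955, plus strand: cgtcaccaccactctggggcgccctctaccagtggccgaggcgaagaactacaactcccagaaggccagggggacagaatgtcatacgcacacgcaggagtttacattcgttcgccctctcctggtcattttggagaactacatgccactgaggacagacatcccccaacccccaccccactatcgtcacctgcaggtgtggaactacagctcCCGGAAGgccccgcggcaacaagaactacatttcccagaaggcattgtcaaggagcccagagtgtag
Mrps21, chr3:95871485-95871764, minus strand: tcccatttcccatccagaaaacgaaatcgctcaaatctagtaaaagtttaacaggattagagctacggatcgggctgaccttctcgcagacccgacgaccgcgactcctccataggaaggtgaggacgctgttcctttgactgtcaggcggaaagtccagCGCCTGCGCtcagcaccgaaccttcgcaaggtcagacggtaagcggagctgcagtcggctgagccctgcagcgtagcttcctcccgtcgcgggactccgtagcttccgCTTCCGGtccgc
Mrps27, chr13:99344536-99344815, plus strand: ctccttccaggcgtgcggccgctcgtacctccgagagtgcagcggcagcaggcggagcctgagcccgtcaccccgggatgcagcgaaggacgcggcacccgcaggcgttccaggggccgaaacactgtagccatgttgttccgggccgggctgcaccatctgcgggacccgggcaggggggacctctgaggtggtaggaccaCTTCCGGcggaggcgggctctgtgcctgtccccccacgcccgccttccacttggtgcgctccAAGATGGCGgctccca
Mrpl16, chr19:11770165-11770444, plus strand: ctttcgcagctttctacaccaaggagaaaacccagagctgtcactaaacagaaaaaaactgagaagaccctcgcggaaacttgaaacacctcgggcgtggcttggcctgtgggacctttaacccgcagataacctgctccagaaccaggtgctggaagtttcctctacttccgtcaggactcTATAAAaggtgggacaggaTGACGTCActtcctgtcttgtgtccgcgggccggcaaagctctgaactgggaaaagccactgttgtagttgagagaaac

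Matches to different motifs did not overlap in the sequences shown. Mrpl34 held an ETS match at -37 to -31. Mrps21 held an NRF1 match at -90 to -82 and an ETS match past the start, at 18 to 24. In Mrps27 an ETS match (-48 to -42) was joined by a YY1 match at 14 to 22, and Mrpl16 held TATA letters (-68 to -63) and a cyclic AMP response element (-49 to -42). The members with an ETS match had a median change of -0.06 and those without it one of -0.06. All 8 members with the YY1 letters had a negative change (median -0.10), against 34 of the 58 without (median -0.04). Among the 8 was Mrps11, whose letters lie on the minus strand. They also lie downstream of the start site of its neighbour Mrpl46, past the end of the window searched there. Mrpl46, with a change of 0.26, was therefore counted among those without, so the split depends on where the windows end. For the NRF1 letters 8 of 15 were negative (median -0.01), against 34 of 51 (median -0.06). These are counts over few genes that share arrays, with no test, and a match shows letters and not binding.

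Of the proteins of the large subunit, 48 were measured under Mrpl or Mrps symbols, Mrps30 and Mrps18a among them, whose products sit in the large subunit despite their names. Their changes were negative in 28 and positive in 20, the median was -0.033, and Mrpl34 and Mrpl19 fell. Of 26 small-subunit proteins 18 were negative and 8 positive, the median was -0.11, and 0 were called. At an unadjusted p under 0.05 limma gave 4 in the large subunit (8.33%), all lower, and 6 in the small subunit (23.1%), 5 of them lower, against 14.1% of all genes. The difference between the subunits was not tested. Split by origin, the large-subunit proteins with a bacterial counterpart had a median change of -0.033 (30 genes, 18 negative, 2 called) and those found only in mitochondria one of -0.027 (18 genes, 10 negative, 0 called). In the small subunit the medians were -0.080 for proteins with a bacterial counterpart (16 genes, 11 negative) and -0.12 for proteins found only in mitochondria (10 genes, 7 negative). Mrps18a and Mrps18b were put among those found only in mitochondria, although they are paralogs of Mrps18c, which was put in a bacterial class. The split by origin depends on such choices. The 4 classes overlapped over most of their range. Mrps36, with a change of -0.13 (limma adjusted p = 0.650), was put in no class, since its product is also known as a subunit of the oxoglutarate dehydrogenase complex.

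**Figure D3:**
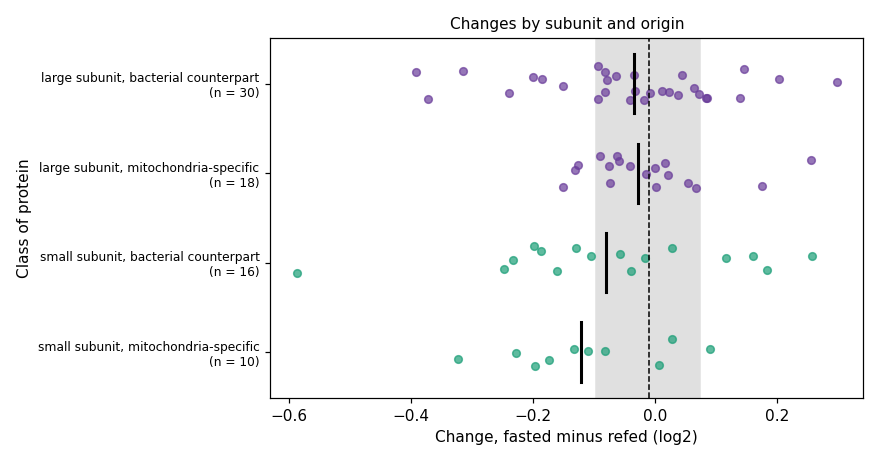
Changes of the members (horizontal axis, fasted minus refed, log2) by subunit and origin, with 1 point per gene and a thick line at the median of each class. The grey band spans the changes of all 21531 genes between their quartiles (-0.096 to 0.075) and the dashed line is their median. Most large-subunit points lie in the band and most small-subunit points outside it. The median of small-subunit proteins found only in mitochondria (-0.12) lies below the band.

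At the peptidyl transferase centre of the large subunit lie the products of Mrpl16 and Mrpl27. Mrpl16 (chromosome 19, 11844881 to 11849450) was at 9.10, 8.97 and 8.95 in the fasted arrays, against 9.39, 9.22 and 9.35 in the refed arrays. All fasted arrays were the lower ones, with a change of -0.31 (-0.51 to -0.11, limma adjusted p = 0.104). Mrpl27 had values of 9.50, 9.72 and 9.30 in the fasted arrays, against 9.29, 9.20 and 9.42 in the refed arrays, and these overlapped (0.20, -0.049 to 0.46, adjusted p = 0.502). Products around the exit of the tunnel through which the new protein leaves include those of Mrpl17 (-0.15), Mrpl22 (0.085), Mrpl23 (0.085), Mrpl24 (-0.078), Mrpl47 (0.30) and Mrpl45 (0.18), whose product holds the ribosome to the inner membrane. Mrpl47, the counterpart of bacterial L29, had the largest positive change of all members. Its values were 7.35, 7.63 and 6.97 in the fasted arrays, against 7.27, 6.71 and 7.09 in the refed arrays. Each group spread over more than the difference between them, and the interval held 0 (-0.082 to 0.68, limma adjusted p = 0.519). Mrpl45 likewise overlapped, at 8.20, 8.08 and 7.79 in the fasted arrays, against 8.10, 7.57 and 7.87 in the refed arrays (adjusted p = 0.713). Mrpl4, whose bacterial counterpart lines the tunnel, was below in all fasted arrays (9.82, 9.53 and 9.75, against 9.85, 9.95 and 10.02 in refed arrays), with a change of -0.24 (adjusted p = 0.305).

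The stalk that recruits translation factors is built on Mrpl10 and Mrpl12. Mrpl10 was at 10.66, 10.35 and 10.65 in the fasted arrays, against 10.78, 10.82 and 10.67 in the refed arrays. The groups were apart only narrowly, fasted 1 being close to refed 3, and the change was -0.20 (-0.43 to 0.029, limma adjusted p = 0.448). Mrpl12, whose product is also known to bind the mitochondrial RNA polymerase, was at 9.51, 9.87 and 9.48 in the fasted arrays, against 9.44, 9.46 and 9.51 in the refed arrays. Fasted 2 alone stood above the other 5 arrays, and the change of 0.15 (-0.10 to 0.39, adjusted p = 0.682) was 0.019 without it. In the central protuberance the changes were -0.032 for Mrpl18, -0.13 for Mrpl38, 0.068 for Mrpl40, 0.26 for Mrpl46 and 0.022 for Mrpl48. Mrpl46 was at 7.59, 8.12 and 7.47 in the fasted arrays, against 7.54, 7.22 and 7.65 in the refed arrays. It overlapped, with fasted 2 far above the rest (-0.11 to 0.62, adjusted p = 0.589, and a change of 0.058 without fasted 2). Mrpl44, with an RNase III-like fold, hardly differed, at 6.98, 6.94 and 7.04 in the fasted arrays, against 6.96, 7.04 and 6.95 in the refed arrays (0.0023, -0.18 to 0.19). Mrpl33, a small protein with a bacterial counterpart, had a change of -0.093 (-0.28 to 0.098).

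In the small subunit, the decoding centre holds the product of Mrps12, the counterpart of the bacterial protein in which streptomycin resistance arises. Its gene was at 7.33, 7.005 and 7.29 in the fasted arrays, against 7.45, 7.31 and 7.60 in the refed arrays. The groups overlapped, since fasted 1 exceeded refed 2, and the change was -0.25 (-0.50 to 0.0039, limma adjusted p = 0.364). Mrps2, Mrps23 and Mrps15 were below in all fasted arrays, with changes of -0.23, -0.23 and -0.20, and none passed (adjusted p = 0.268, 0.280 and 0.295). Mrps15 had the tightest groups of these, at 9.83, 9.72 and 9.80 in the fasted arrays, against 9.97, 10.001 and 9.97 in the refed arrays. Mrps9, whose bacterial counterpart reaches the tRNA in the P site, was the opposite case, at 7.73, 7.72 and 7.73 in the fasted arrays, against 7.43, 7.34 and 7.63 in the refed arrays. All fasted arrays lay above, and the change of 0.26 (0.048 to 0.47) did not pass (adjusted p = 0.225). Mrps28 overlapped, at 7.91, 8.37 and 7.58 in the fasted arrays, against 7.65, 7.85 and 7.81 in the refed arrays. Its change of 0.18 (-0.18 to 0.54) turned to -0.024 without fasted 2. The paralogs Mrps18a, Mrps18b and Mrps18c had changes of -0.040, -0.20 and 0.12, and the intervals of all 3 held 0.

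Mrpl46 and Mrps11 were the members that neighbour each other head to head, on chromosome 7, with 220 bases between their transcript clusters. They had changes of opposite sign, 0.26 for Mrpl46 and -0.19 for Mrps11. Mrps11 was at 7.91, 7.91 and 7.99 in the fasted arrays, against 8.04, 8.20 and 8.12 in the refed arrays, so that its fasted arrays were all lower. Neither gene was called (limma adjusted p = 0.589 and 0.362). Their promoter windows, shown for this shared stretch, overlap on opposite strands. Bases upstream of the start site of either gene thus lie partly downstream of that of the other. The TATA letters of Mrpl46 (-131 to -126) lie downstream of the start site of Mrps11. The window of Mrps9, the member with all fasted arrays above, follows.
Mrpl46, chr7:78783060-78783339, minus strand: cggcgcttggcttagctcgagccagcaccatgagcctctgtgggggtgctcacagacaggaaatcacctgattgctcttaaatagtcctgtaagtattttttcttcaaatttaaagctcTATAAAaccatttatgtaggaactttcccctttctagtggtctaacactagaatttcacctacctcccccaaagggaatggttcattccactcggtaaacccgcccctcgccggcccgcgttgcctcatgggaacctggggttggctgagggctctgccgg
Mrps11, chr7:78782881-78783160, plus strand: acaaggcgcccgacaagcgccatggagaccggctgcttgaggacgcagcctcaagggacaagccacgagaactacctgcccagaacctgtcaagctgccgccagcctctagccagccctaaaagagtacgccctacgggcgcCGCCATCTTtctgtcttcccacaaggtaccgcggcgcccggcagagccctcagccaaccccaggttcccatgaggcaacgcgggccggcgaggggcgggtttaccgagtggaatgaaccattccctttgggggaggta
Mrps9, chr1:42850983-42851262, plus strand: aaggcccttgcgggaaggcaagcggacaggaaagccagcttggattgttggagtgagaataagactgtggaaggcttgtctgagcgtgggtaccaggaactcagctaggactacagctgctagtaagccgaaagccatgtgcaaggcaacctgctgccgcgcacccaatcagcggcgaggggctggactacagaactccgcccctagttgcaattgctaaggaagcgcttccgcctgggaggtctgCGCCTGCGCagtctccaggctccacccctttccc

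In Mrps9 an NRF1 match spanned the start site (-4 to 4), and in Mrps11 a YY1 match on the minus strand lay at -108 to -100. Of the 75 members, 23 had another gene head to head within 1000 bases, which made 22 pairs. Both genes had a negative change in 9 pairs, both a positive change in 5, and the signs differed in 8. None of the partners was called by limma. The 2 partners with an unadjusted p under 0.05 were Peo1, which encodes the mitochondrial DNA helicase and lies beside Mrpl43 (-0.41, limma adjusted p = 0.0692, against 0.054 for Mrpl43), and Eme2 beside Mrps34 (-0.40, adjusted p = 0.108, against -0.081 for Mrps34). Mrps27 and its neighbour Ptcd2, which encodes a pentatricopeptide repeat protein of mitochondria, had changes of -0.32 and -0.19.

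The members deviated together by array, also among the arrays of 1 condition. The deviation of each gene from its mean over the 6 arrays had a median over the members of 0.041 in fasted 1, -0.032 in fasted 2 and -0.10 in fasted 3, against 0.063 in refed 1, -0.035 in refed 2 and 0.067 in refed 3. Over all genes the same medians lay between -0.025 and 0.024. Fasted 3 was below the gene mean in 63 of the 75 members, and refed 2 in 48. Fasted 3 was the lowest of the fasted arrays in 45 members (60.0%, against 32.7% of all genes), fasted 1 was the highest in 45 (60.0%, against 30.3%), and refed 2 was the lowest refed array in 47 (62.7%, against 33.2%). Within the fasted arrays these medians thus differed by more than the median change between the conditions. Fasted 2 was the array in which single members differed most, with an SD of the deviations of 0.20, against 0.095 to 0.15 in the other 5 arrays. The median change was -0.023 without fasted 3, less negative than that of all genes (-0.035), and -0.10 without refed 2. It was -0.020 without refed 3, against -0.023 over all genes. Without both fasted 3 and refed 2 it was -0.0527, against -0.0205 over all genes.

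**Figure D4:**
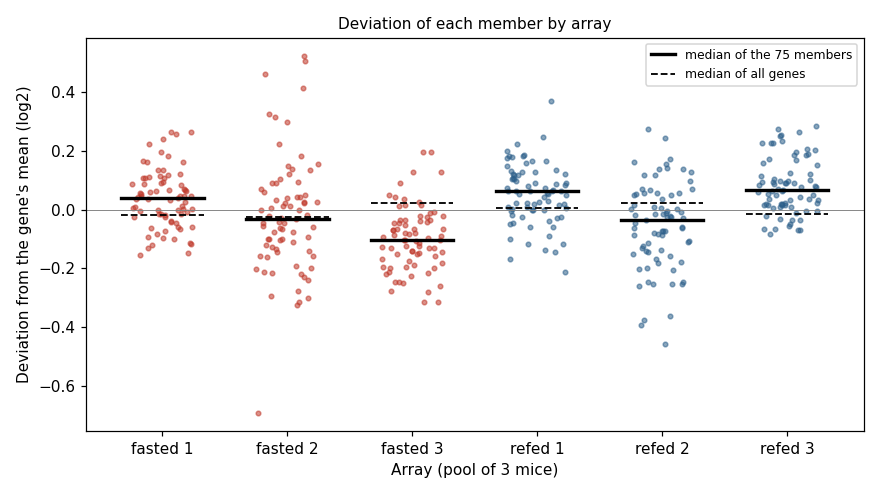
Deviation of each member from its mean over the 6 arrays (vertical axis, log2) by array, with fasted arrays at the left. Points are the 75 genes, thick lines their median and dashed lines the median of all genes. The members are lowest in fasted 3, at a median of -0.10, and refed 2 lies below refed 1 and refed 3.

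For 12 members the array held several transcript clusters under the same symbol. The cluster that was used lay on another chromosome than the RefSeq gene in 5 of them, Mrpl27, Mrpl41, Mrpl48, Mrpl51 and Mrps33, all of a type that the annotation marks as cross-hybridising. Places were checked by chromosome only. In Mrps5 and Mrps10 the cluster used was on the gene's chromosome but far from the other cluster. That of Mrps5, also of a cross-hybridising type, lay at 20156672 to 20157727 on chromosome 2, and the other at 127413155 to 127430258. Their changes were 0.029 and 0.061. The clusters of a gene differed in the sign of their change in Mrpl18, Mrpl41, Mrpl48, Mrpl51, Mrps10 and Mrps30. Mrps30 had a change of -0.074 in the cluster used and of 0.16 in the other. Mrps10 had a change of 0.16 in the cluster used (chromosome 17, 65787044 to 65787983). In its other cluster, at 47505841 to 47515630, the change was -0.052. For Mrpl27 the cluster at the gene's own place on chromosome 11 had a change of 0.23, close to the 0.20 of the one used. Mrpl47, by contrast, had a change of 0.10 in its second cluster, which was dim, against 0.30 in the first. These 12 genes are therefore less certain than the rest, and neither called gene is among them. The cluster of Mrps36 differed by 2.05 between the deposited tables.

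**Figure D5:**
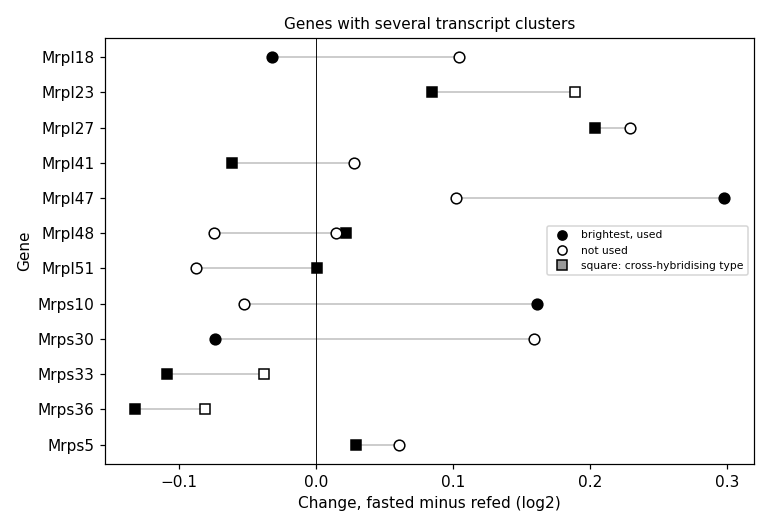
Changes (horizontal axis, fasted minus refed, log2) of the transcript clusters of the 12 members with several. Filled symbols are the clusters used, open symbols the others, and squares are of a cross-hybridising type. In 6 genes the clusters lie on both sides of 0.

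Proteins of the mitochondrial ribosome whose genes have other kinds of symbols were set beside the members. The change was negative in 6 of 7 measured, their median was -0.092, and 0 were called. The one with the smallest p was Mrp63 (9.22 ± 0.17 in fasted and 9.49 ± 0.16 in refed liver, -0.27, limma unadjusted p = 0.0368). Dap3, a GTP-binding protein of the small subunit, had a change of -0.066, and Ict1, a peptidyl-tRNA hydrolase built into the large subunit, one of -0.092. Among 13 mitochondrial translation factors 0 were called and 8 had a positive change (median 0.020), with Mrrf, the ribosome recycling factor, at -0.25 (unadjusted p = 0.0207). Among 19 measured genes of mitoribosome assembly and rRNA modification 0 were called (median -0.0064). Their largest change was that of Mterfd2, a partner of the rRNA methyltransferase Nsun4 (0.39, adjusted p = 0.104), and 4 (21.1%) had an unadjusted p under 0.05, 2 higher and 2 lower, against 14.1% of all genes. The 15 measured genes of mitochondrial transcription and RNA stability had a median of -0.0091 and 0 calls, with 4 (26.7%) at an unadjusted p under 0.05, 2 higher and 2 lower, among them Tfam, which packages mitochondrial DNA (0.35, adjusted p = 0.335), and Pnpt1, an exoribonuclease (-0.30, adjusted p = 0.193).

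Calls in the lists around the mitochondrial ribosome were those of coactivators. Of 12 transcription factors and coactivators of nuclear-encoded mitochondrial genes 2 rose (16.7%, against 3.02% of all genes called), both coactivators. At an unadjusted p under 0.05 the list had 8 genes (66.7%, against 14.1% of all genes), 5 higher and 3 lower. Ppargc1b averaged 8.62 ± 0.091 in fasted and 7.88 ± 0.20 in refed liver (0.74, limma adjusted p = 0.00497), and Ppargc1a averaged 8.83 ± 0.18 in fasted and 8.20 ± 0.16 in refed liver (0.63, adjusted p = 0.0151). The call of Ppargc1b held whichever array was left out, and that of Ppargc1a was lost without fasted 1 (adjusted p = 0.0885), fasted 2 (0.0627), refed 1 (0.0581) or refed 3 (0.0653). Factors that bind the ETS, NRF1, YY1 and cyclic AMP response motifs were not called in this list. Nrf1 had a change of -0.0072, Yy1 one of 0.30 (limma adjusted p = 0.167) and Creb1 one of -0.25. The GABP subunits Gabpa, Gabpb1 and Gabpb2 had changes of 0.42, 0.35 and 0.11 (limma adjusted p = 0.132, 0.229 and 0.716). Myc had a change of -0.82 (adjusted p = 0.132), with SDs of 0.48 in fasted and 0.49 in refed pools. The 80 cytosolic ribosomal proteins had a median change of -0.033, with 49 negative (61.25%, against 53% of all genes) and 0 called. At an unadjusted p under 0.05 they numbered 6 (7.5%, against 14.1% of all genes). The mitochondrial ones had a median of -0.057, with 47 of 75 negative, 2 called and 10 (13.3%) at that unadjusted threshold.

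The 10 hepatocyte markers had fasted means of 12.6 to 14.1, and none was called. At an unadjusted p under 0.05 there was 1 of them (10%), Hnf4a. Its change was -0.25 (limma unadjusted p = 0.0155), with all fasted arrays below all refed arrays. All 8 Kupffer cell and macrophage markers had a negative change (median -0.22), and Vsig4 fell (9.66 ± 0.071 in fasted and 10.37 ± 0.24 in refed liver, limma adjusted p = 0.00904). With Vsig4, 4 of the 8 (50%) had an unadjusted p under 0.05 in limma, against 14.1% of all genes. The mean log2 level of these 8 markers was between 8.19 and 8.25 in the fasted arrays and between 8.33 and 8.59 in the refed arrays. Of the 5 cholangiocyte markers 4 had a negative change (median -0.085), and Sox9 fell (8.20 ± 0.12 in fasted and 8.73 ± 0.098 in refed liver, adjusted p = 0.0141). Spp1 had a change of 0.27, Krt19 one of -0.29, Krt7 one of -0.085 and Epcam one of -0.012, and these 4 were not called. The call of Vsig4 was lost without fasted 1 (adjusted p = 0.0543), and that of Sox9 without fasted 1 (0.0543), fasted 2 (0.0583) or refed 3 (0.0667). The mean level of the 5 cholangiocyte markers was between 7.02 and 7.14 in the fasted arrays and between 7.20 and 7.25 in the refed arrays. Of the 7 liver endothelial markers 6 had a positive change (median 0.15), with 0 called and 2, Pecam1 (0.21) and Kdr (0.28), at an unadjusted p under 0.05. No stellate cell, lymphocyte, neutrophil or erythroid marker was called, and 2 of them had an unadjusted p under 0.05. The part of these cell types in the changes of the members was not tested. The medians of the 6 arrays over all transcript clusters lay between 6.73 and 6.81.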

How the data were processed

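Per the labels, similar amounts of liver RNA from 3 mice were pooled for each array. The authors deposited log2 values of 34760 transcript clusters for the 6 arrays, made by RMA in Affymetrix Expression Console version 1.3.1.187 per the submitters' processing notes. A second deposited table annotates 28350 transcript clusters (symbol, NCBIM37 position, cross-hybridisation type). Its fold changes and p-values of the authors' comparison of livKOR with livWTR, groups it does not spell out, were not used, nor were 12 columns of values tied to no labelled sample. Its livWTR mean on the log2 scale, deposited by the authors, served to check identifiers. In both tables were 27619 transcript clusters, of which 24446 had 1 symbol, and 558 whose refed mean lay over 1 from the livWTR mean were left out, except that the rows standing for members were kept (1 such row, Mrps36). The brightest transcript cluster stood for each of 21531 genes.

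Groups were compared with limma 3.58.1 (lmFit, eBayes) in R 4.3.3, with the condition as the only term, two-sided, adjusted by Benjamini-Hochberg over all 21531 genes, after a check on simulated data. An exact permutation test of 3 against 3 arrays cannot go below 0.1, so none was run. The p-values measure the spread between pools. Arrays give no depth, and their number limits the precision. The members, the gene lists and the tests were chosen with earlier results of these data known. Genes named were the called members, the 6 largest changes in each direction, the 3 brightest and 3 dimmest, those whose transcript clusters differ in sign, Mrpl12, Mrps12, Mrpl58, Mrpl44 and Mrpl18, and called genes of the other lists. Other members were named for their place in the ribosome or their neighbours after their values had been seen. Mrpl58 was measured under the symbol Ict1, and Mrpl55 and Mrps28 were moved to the bacterial classes after their values had been seen, by the current names of their proteins. The NRF1 letters were shortened after a longer form had been searched, and 1 further motif, picked from a sequence already seen, is not reported. The alternatives tried were leaving out arrays, a replicate block, other variance priors, filters, normalisations and choices of transcript cluster.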

Additional observations from a re-analysis of the deposited data

How the results depend on the processing

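The count of 2 called members held, within 1 gene, under most choices of processing but not under fewer arrays. It was 0 without any single array (0 to 0, with genes called between 266 and 616), 0 without both fasted 3 and refed 2 (413 genes called), 0 with a variance prior from all rows (186 genes) and 0 at an adjusted p under 0.01 (234 genes). It was 1, Mrpl34, after arrays were centred on their medians (513 genes), and 3, with Mrps21 added, with a variance trend (adjusted p of Mrps21 0.0401) or without dim genes (0.0478). The median change of the members was negative in every fit, at -0.10 to -0.020 with 1 array left out. It was above that of all genes without fasted 3 (-0.023 against -0.035) and without refed 3 (-0.020 against -0.023). Over all alternatives the adjusted p of Mrpl34 was 0.0183 to 0.131 and that of Mrpl19 0.0289 to 0.195. The replicate block gave 0 members and 457 genes (210 higher, 247 lower). Same-numbered arrays had correlations of their deviations of 0.069, -0.229 and -0.335. The deviations of the 3 arrays of a condition sum to 0 in each gene. These correlations therefore cannot show whether the numbers pair the samples.

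The sign of 32 of the 75 members turned under at least 1 alternative, in 8 to 11 members with any 1 array left out, and 0 members were called in a fit in which they turned. Of 22 members followed gene by gene, 7 turned. With 1 array left out the changes were -0.0565 to 0.0765 for Mrpl48, -0.0915 to 0.113 for Mrpl51, -0.024 to 0.37 for Mrps28 (0.41 without both fasted 3 and refed 2), -0.0227 to 0.031 for Mrpl44, -0.19 to 0.065 for Mrps30 and -0.10 to 0.0112 for Mrpl18. With the mean of transcript clusters they were 0.0428 for Mrps30, 0.0363 for Mrpl18, -0.0125 for Mrpl48 and -0.0434 for Mrpl51. Without cross-hybridising transcript clusters they were 0.0277 for Mrpl41, -0.074 for Mrpl48 and -0.0874 for Mrpl51. With the brightest transcript cluster on the RefSeq chromosome, an alternative chosen after seeing the data, they were the same (0.0277, -0.074 and -0.0874). The cause of these shifts was not tested, beyond the arrays or transcript clusters that each alternative leaves out.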
